A study of Drosophila melanogaster with 3 samples.

Results

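The regions described here are the intergenic regions near genes in a map of Hsf-GFP binding in Drosophila melanogaster embryos. A member is a region of the pooled candidate list whose summit, the position of its highest signal, lay in no annotated gene and 501 to 5000 bp from the nearest annotated transcription start site (TSS). The rule found 3454 members among 30000 pooled candidate regions, which is 11.5% of the list. Of all candidate regions, 19.2% were in the optimal list, the regions that passed the authors' test of reproducible rank between replicates, and of the members 528 were, which is 15.3% (95% Wilson interval 14.1 to 16.5%). The optimal list was the 5756 candidate regions of highest signal, so presence in it and a high signal are 1 measure.

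The data came from chromatin immunoprecipitation and sequencing of whole embryos aged 0 to 24 h, of both sexes pooled, in a line that stably carries Hsf with GFP at its C terminus. The 3 samples were biological replicates 1, 2 and 3 of this 1 genotype, and GFP was the target of the antibody. Chromatin was sonicated, with a stated size range of 200 to 800 bp. The labels name a control experiment, which was not analysed here, and they name no heat treatment, no driving promoter and no cell type, so the values are averages over all tissues and all stages of embryogenesis. Signal, the authors' score of a peak relative to a control, has its own scale in each list. Sequencing depth is unknown from region lists, and so is the precision of a single region's signal.

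Hsf is the heat shock transcription factor. Under heat or other protein-damaging stress it forms trimers that bind arrays of inverted GAA units, called heat shock elements, and it activates chaperone genes. In flies it also has roles in development in the absence of heat. Intergenic DNA at some distance from a TSS can hold enhancers and insulators, and in the compact fly genome a summit between genes may lie closer to the end of one gene than to the start of the one it is named for. A member is named here by the gene with the nearest TSS, which does not say which gene, if any, is regulated from it.

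Windows of 6 of the 9 strongest members are shown, and those at CycB, CG13321 and CG14762 are not. They were chosen because they come from regions with some of the highest signals of the class, and because none of the 12 strongest held a heat shock element with at most 1 mismatch within 100 bp of its summit. Each window is 201 bases centred on the summit, read on the plus strand of genome release 6. Capitals mark a match to the TATA box word TATAAAA or to the Zelda word CAGGTAG on either strand.
lncRNA:CR45643 upstream, chr3R:16222399-16222599: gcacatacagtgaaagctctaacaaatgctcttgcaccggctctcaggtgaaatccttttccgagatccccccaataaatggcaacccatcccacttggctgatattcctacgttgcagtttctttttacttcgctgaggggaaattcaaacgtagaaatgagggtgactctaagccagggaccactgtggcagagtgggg
sp3, chr3R:21520278-21520478: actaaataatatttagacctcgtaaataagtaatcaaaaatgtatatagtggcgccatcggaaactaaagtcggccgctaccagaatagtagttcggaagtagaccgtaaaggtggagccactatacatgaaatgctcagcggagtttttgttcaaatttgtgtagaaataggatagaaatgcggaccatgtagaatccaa
CG31668, chr2L:2202312-2202512: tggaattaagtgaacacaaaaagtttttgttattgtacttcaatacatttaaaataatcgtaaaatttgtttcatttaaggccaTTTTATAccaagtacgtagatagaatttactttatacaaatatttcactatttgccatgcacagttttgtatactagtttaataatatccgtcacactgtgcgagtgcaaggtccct
lncRNA:CR42794, chrX:5696429-5696629: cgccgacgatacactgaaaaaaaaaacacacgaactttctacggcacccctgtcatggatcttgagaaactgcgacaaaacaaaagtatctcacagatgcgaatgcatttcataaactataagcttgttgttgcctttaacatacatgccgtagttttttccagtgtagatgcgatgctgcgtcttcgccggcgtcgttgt
CG43131, chr3R:5113169-5113369: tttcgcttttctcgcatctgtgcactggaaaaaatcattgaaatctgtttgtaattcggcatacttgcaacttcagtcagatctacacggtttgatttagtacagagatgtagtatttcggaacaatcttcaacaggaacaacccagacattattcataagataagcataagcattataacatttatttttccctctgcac
lncRNA:CR45643 downstream, chr3R:16224410-16224610: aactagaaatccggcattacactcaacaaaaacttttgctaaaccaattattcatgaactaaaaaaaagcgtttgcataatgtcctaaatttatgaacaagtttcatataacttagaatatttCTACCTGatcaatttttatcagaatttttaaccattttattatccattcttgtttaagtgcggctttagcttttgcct
The window downstream of lncRNA:CR45643 was 28.4% G and C and the one at CG31668 29.4%, whereas the window upstream of lncRNA:CR45643 was 48.8%. The windows at sp3, CG43131 and lncRNA:CR42794 had 38.3, 35.8 and 43.8%. Those not shown at CycB, CG13321 and CG14762 had 36.8, 33.8 and 33.3%. At lncRNA:CR43437, RasGAP1 and DNAlig3, also among the 12 strongest, the values were 33.3, 32.3 and 30.8%. Base composition thus varied among the 12, and most lay below the mean of 40.1% over members outside the optimal list.

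The members that held a full heat shock element were different regions from the strongest ones. The element was searched as GAA, TTC and GAA, each separated by 2 free bases, with its 9 fixed positions in capitals below. The first 4 sequences had no mismatch and came from members outside the optimal list, those of highest signal among the members with a full element. The last 4 had 1 mismatch and came from the 4 optimal members of highest signal among those with an element. Each is 33 bases on the strand that reads GAA first.
rhea, chr3L:8543944-8543976, minus strand: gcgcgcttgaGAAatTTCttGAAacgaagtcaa
stck, chr3R:8355132-8355164, minus strand: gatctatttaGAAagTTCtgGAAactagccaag
Fum3, chr3L:11467059-11467091, plus strand: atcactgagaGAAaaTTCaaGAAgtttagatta
CG44362, chr3L:11400480-11400512, minus strand: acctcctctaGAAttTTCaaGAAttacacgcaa
lncRNA:CR45303, chr2L:14502758-14502790, plus strand: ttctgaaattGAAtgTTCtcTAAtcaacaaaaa
Cpr76Ba, chr3L:19516709-19516741, minus strand: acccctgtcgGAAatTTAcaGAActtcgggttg
by, chr3R:9534310-9534342, plus strand: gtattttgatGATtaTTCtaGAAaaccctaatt
E(spl)malpha-BFM, chr3R:26009126-26009158, plus strand: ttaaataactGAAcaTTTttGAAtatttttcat
The full elements at rhea (talin, which links integrins to actin), stck (PINCH, an integrin adhesion protein), Fum3 and CG44362 lay in regions with signals of 67.5, 65.5, 38.9 and 36.3. The summit of the stck region was 589 bp from that of an optimal member at stck, chr3R:8355574-8355910, with a signal of 664. That neighbour ranked 189, 254 and 236 in replicates 1, 2 and 3, and its own window held no element. The 1-mismatch elements at lncRNA:CR45303, Cpr76Ba (a cuticle protein gene), by (tensin, another integrin adhesion protein) and E(spl)malpha-BFM (a Notch target of the Bearded family) lay in regions with signals of 508.4, 475.3, 473.1 and 434.6. Relative to the summit on the plus strand, the element's centre was at -2 bp at lncRNA:CR45303, at 1 bp at Cpr76Ba and stck and at -13 bp at by. It was farther away at Fum3 (-43 bp), CG44362 (49 bp), E(spl)malpha-BFM (62 bp) and rhea (-77 bp).

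Signal among the members ran from 24.6 to 1306, with a median of 39.8 and quartiles of 30.1 and 65.3. Of the members, 21 had a signal above 500, and 4 were among the 100 strongest candidate regions of any kind. Among the 1000 strongest candidate regions there were 59 members (5.90%), against 11.5% of the whole list. The optimal members had a median signal of 154.9, and the optimal regions within 500 bp of a TSS had 179.3, those in introns 157.1 and those over 5000 bp from a TSS 150.2. The weakest optimal member, at Ttc26, had 97.1, and the strongest member outside the list, at Prip, had 96.9, so the list ends at a rank and not at a gap in signal.

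**Figure D1:**
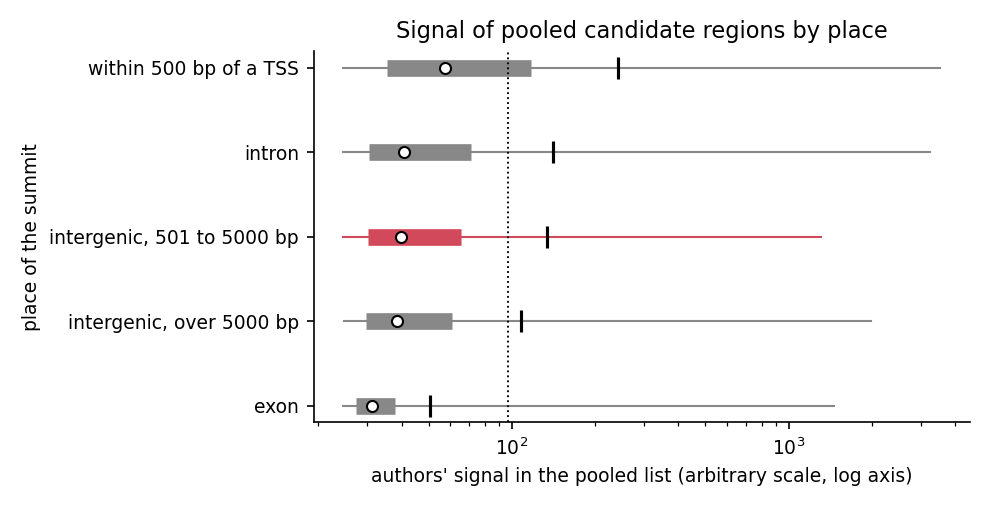
Authors' signal of the pooled candidate regions by place of the summit, on a log axis: thin lines run from lowest to highest, thick bars between the quartiles, circles are medians, vertical ticks the 90th percentile and the dotted line the weakest optimal signal. The intergenic regions 501 to 5000 bp from a TSS (red) have a median of 39.8, close to the 40.7 of introns and below the 57.6 of regions within 500 bp of a TSS.

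The strongest member lay between the ends of CycB and blw, which point towards each other. CycB encodes cyclin B, which drives entry into mitosis, and blw encodes the alpha subunit of mitochondrial ATP synthase. The region, chr2R:22802769-22803144, had a pooled signal of 1306 and ranked 42nd in the pooled list, and it ranked 43, 51 and 47 in replicates 1, 2 and 3. Its summit was 3348 bp downstream of the CycB start but 566 bp beyond the end of the gene. In this region the 3 replicates gave nearly equal ranks.

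Around lncRNA:CR45643 on 3R, members lay on both sides of the RNA gene. The one upstream, chr3R:16222314-16222673, was 896 bp before its start, with a signal of 1301 and ranks of 52, 45 and 46 in replicates 1, 2 and 3. The one downstream, chr3R:16224337-16224681, was 910 bp past its start, beyond its end and 1141 bp from tara, which encodes a nuclear regulator of the cell cycle and of sleep, with a signal of 753 and ranks of 122, 222 and 216. The interval from lncRNA:CR45641 to lncRNA:CR45643, 8437 bp wide, held 8 members, 4 of them optimal.

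The member at sp3, chr3R:21520206-21520544, lay 550 bp upstream and had a signal of 1133, with ranks of 121, 75 and 28. Replicate 3 ranked it highest and replicate 1 lowest. At CG31668, chr2L:2202208-2202583, 3754 bp downstream of the start and 1309 bp past the end, the signal was 949 and the ranks were 63, 162 and 120. The region between CG13321 and Psc, a Polycomb group gene that keeps developmental genes silent, was chr2R:12958019-12958431, with a signal of 799 and ranks of 103, 187 and 198. For both regions replicate 1 gave the highest rank.

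The other members among the 12 strongest had signals from 703 to 792 and lay at CG14762, lncRNA:CR42794, CG43131, lncRNA:CR43437, RasGAP1 and DNAlig3. RasGAP1 encodes an inhibitor of Ras signalling and DNAlig3 a DNA ligase. The region at lncRNA:CR42794 was 232 bp from an optimal promoter summit, the closest such summit to any of the 12. The region named for DNAlig3 lay in a 437 bp gap between the ends of Sol1 and Cyp9f2, a cytochrome P450 gene, and the one at lncRNA:CR43437 was on chromosome 4. Across all 12, ranks within the replicate lists ran from 28 to 346, so each was far inside the 5756 strongest regions of each replicate.

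**Figure D2:**
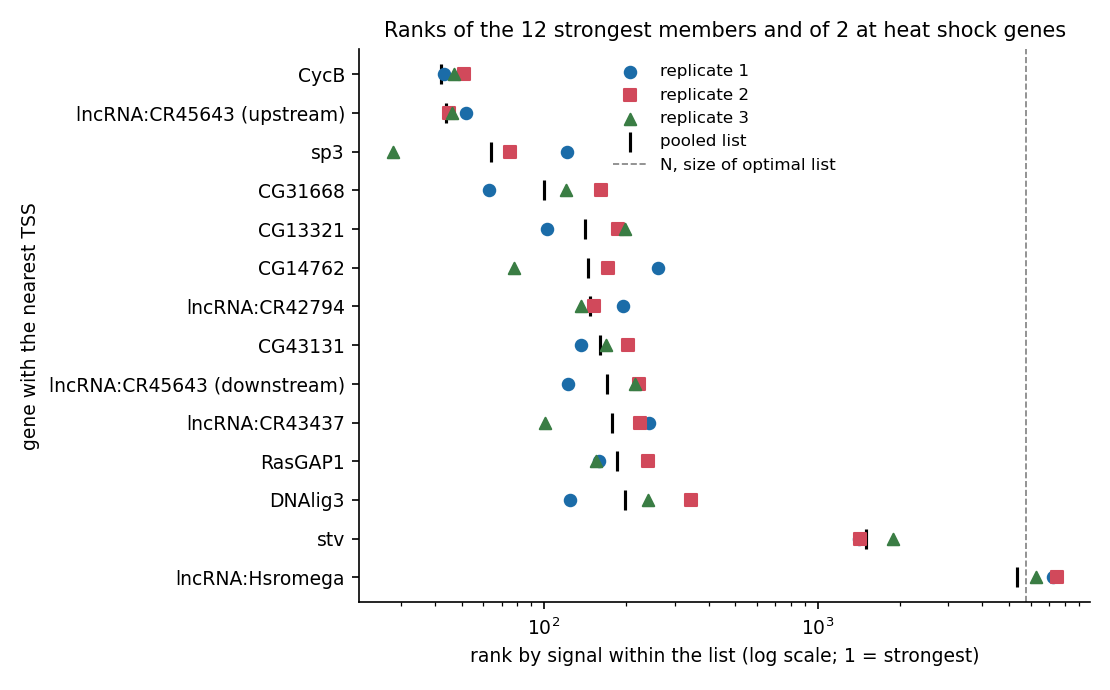
Rank by signal, on a log axis where 1 is the strongest, of the 12 strongest members and of the optimal members at stv and lncRNA:Hsromega, in each replicate (coloured symbols) and in the pooled list (ticks); the dashed line is at rank 5756. The 12 strongest lie between ranks 28 and 346 in all replicates, stv between 1411 and 1891, and lncRNA:Hsromega beyond the dashed line in all 3 replicates.

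Replicates carry the error of these values, because the pooled list has none. In each replicate list a region was called strong when it was among that list's 5756 highest signals, and regions were placed by the same rule. Of the intergenic regions near genes, 15.9% of 3179 were strong in replicate 1, 15.2% of 3612 in replicate 2 and 15.8% of 3328 in replicate 3 (mean 15.6% ± 0.389, SD, n = 3). The share was 14.0, 9.89 and 11.4% among intergenic regions over 5000 bp from a TSS (mean 11.8% ± 2.09, SD, n = 3). It was 16.2, 18.7 and 16.6% in introns (mean 17.2% ± 1.32, SD, n = 3) and 28.8, 37.9 and 34.1% within 500 bp of a TSS (mean 33.6% ± 4.58, SD, n = 3). The replicate values of the near-gene class lay above all those of the remote class and below all those of introns and of promoters, without overlap.

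The difference from remote intergenic regions was 3.84 percentage points ± 1.80 (SD, n = 3), above 0 in 3 of 3 replicates (exact sign-flip permutation test, two-sided, p = 0.25). The difference from introns was -1.55 points ± 1.70 (SD, n = 3), below 0 in 3 of 3 replicates (the same exact test, p = 0.25), and it was -0.571 points without replicate 2. From promoters the difference was -18.0 points ± 4.91 (SD, n = 3; the same exact test, p = 0.25). With 3 replicates this test cannot give a p under 0.25, so no difference here could pass a threshold of 0.05. Nothing in the labels says that the replicates were grown separately beyond the words biological replicate. When the differences of the 3 replicates have 1 sign, the exact sign-flip test gives p = 0.25 whatever their spread, which is given by the SD.

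**Figure D3:**
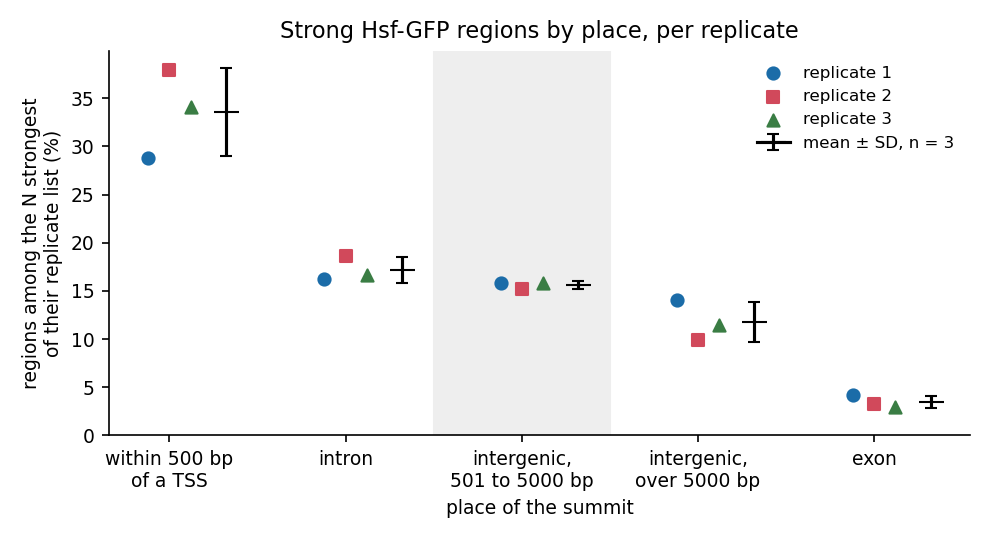
Share of regions among the 5756 strongest of their own replicate list, by place of the summit, with 1 symbol for each replicate and black bars for the mean ± SD (n = 3). The intergenic regions 501 to 5000 bp from a TSS (shaded) lie at 15.2 to 15.9%, above the 9.89 to 14.0% of regions over 5000 bp away and below the 28.8 to 37.9% of regions within 500 bp of a TSS.

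Position within the class was next compared. Among members 501 to 1000 bp from the TSS, 139 of 749 were optimal (18.6%, 95% interval 15.9 to 21.5%), against 152 of 1048 at over 1000 and up to 2000 bp (14.5%) and 237 of 1657 at over 2000 bp (14.3%, 12.7 to 16.1%). In the replicates the nearest class had 18.6, 19.7 and 21.5% strong and the farthest 15.0, 13.1 and 13.4%, with no overlap. The difference was 6.09 percentage points ± 2.35 (SD, n = 3), above 0 in 3 of 3 replicates (exact sign-flip permutation test, p = 0.25). Intervals here cover counting error over regions only.

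Upstream members outnumbered downstream members by 2326 to 1128; a downstream summit of this class must lie beyond the end of the gene. Of the upstream members 365 (15.7%) were optimal, and of the downstream members 163 (14.5%). Strong shares in replicates 1, 2 and 3 were 16.0, 16.2 and 16.9% upstream and 15.5, 13.1 and 13.8% downstream, a difference of 2.25 points ± 1.47 (SD, n = 3; exact sign-flip permutation test, p = 0.25). The 501 to 1000 bp class had 18.5% optimal upstream and 19.0% downstream, so in the pooled list the nearer class was the higher one on either side.

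A nearby strong promoter went with a higher share, in a comparison chosen after the pooled values had been seen. Of 127 members with an optimal promoter summit, that is one within 500 bp of a TSS, at most 1000 bp away, 39 were optimal (30.7%, 95% interval 23.4 to 39.2%). The share was 18.2% of 567 members with such a summit farther away but within 5000 bp and 14.0% of 2760 with none within 5000 bp. In the replicates it was 31.9, 30.5 and 34.9% within 1000 bp and 14.8, 13.3 and 14.4% with none within 5000 bp, a difference of 18.2 points ± 1.95 (SD, n = 3; exact sign-flip permutation test, p = 0.25). The lowest value of the first group was above the highest of the second. Neighbouring regions can share fragments, and 24 members overlapped an optimal promoter region, 9 of them optimal. Among the 103 members within 1000 bp that did not overlap one, 30 were optimal (29.1%), a count made in the pooled list only. Regions that do not overlap can still share fragments of the stated size range. The part of shared fragments in the difference was not tested.

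**Figure D4:**
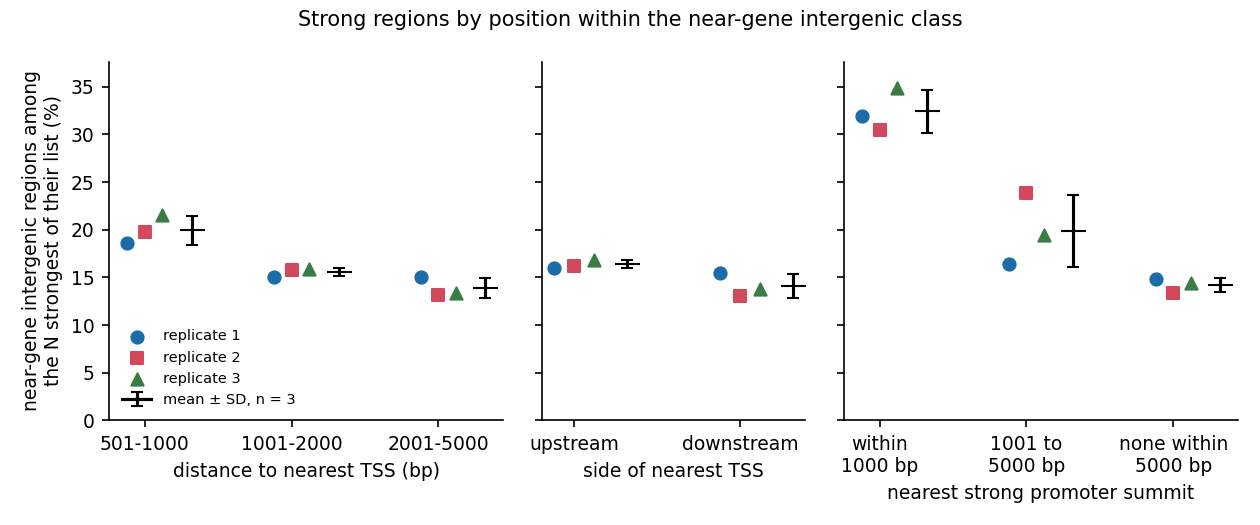
Share of intergenic regions near genes that were among the 5756 strongest of their replicate list, by distance to the nearest TSS, by side and by distance to the nearest strong promoter summit, with 1 symbol for each replicate and black bars for the mean ± SD (n = 3). Regions with a strong promoter summit within 1000 bp lie at 30.5 to 34.9% and those with none within 5000 bp at 13.3 to 14.8%.

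Most members, optimal or not, were at genes without an optimal promoter, and the optimal share was highest at genes with one. Of the 528 optimal members, 244 (46.2%) were at genes with no candidate summit within 500 bp of any of their starts, 174 (33.0%) at genes with a candidate only and 110 (20.8%) at genes with an optimal promoter. Of all 3454 members, 1868, 1119 and 467 were in these groups, and 13.1, 15.5 and 23.6% of them were optimal. Among optimal members at genes with an optimal promoter were those at foxo, the transcription factor of insulin signalling, at bcd, the anterior morphogen gene, at Dad, an inhibitory Smad of the Dpp pathway, and at kay, the fly Fos.

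Shares by arm, gene type and interval are given as descriptions, with no replicate test. The optimal share was 17.3% of 762 members on 2L, 15.8% of 885 on 3L, 14.5% of 731 on 3R, 14.0% of 472 on X and 13.7% of 578 on 2R, and 5 of 26 on chromosome 4. It was 15.7% of 2312 members whose nearest gene codes for a protein and 14.5% of 1029 at noncoding RNA genes. Between genes that point away from each other it was 15.6%, between genes in the same direction 15.7% and between genes that point towards each other 13.8% of 695. Intervals up to 2 kb had 18.7% of 422 members optimal (95% interval 15.3 to 22.7%) and those over 10 kb 14.0% of 1223 (12.2 to 16.0%).

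Optimal members were spread over many genes. They had 453 nearest genes, of which 391 had 1 optimal member, 50 had 2, 11 had 3 and lncRNA:CR45737 had 4. They fell in 438 of the 1884 intergenic intervals that held a member, and 18 intervals held 3 or more. Besides the interval at lncRNA:CR45643, those from Ids to lncRNA:CR45737 (14004 bp) and from robo2, an axon guidance receptor gene, to CG43401 (8020 bp) held 4 each. Of the optimal members, 14 overlapped another optimal member, so these counts are not all of separate sites.

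Support in the replicates was examined for each pooled member. A member took the rank of the strongest replicate region that overlapped it, whose summit could be that of a neighbouring peak. A weaker optimal summit between CG13321 and Psc, with a signal of 150, thus took the ranks of 103, 187 and 198 of the stronger one. The counts that follow can include such support from a neighbour. Of the 528 optimal members, 517 overlapped a region in all 3 replicate lists and 11 in 2 of them. All 3 replicates placed 338 of them (64.0%) among their 5756 strongest, 130 were placed there by 2 replicates, 58 by 1 and 2 by none. Among all 5756 optimal regions 67.9% were strong in all 3 replicates, and among those within 500 bp of a TSS 71.7%. Of the 2926 other members, 52 (1.78%) were strong in all 3 and 132 overlapped a region in none of the lists.

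Single replicates gave similar counts: 440 optimal members were strong in replicate 1, 456 in replicate 2 and 436 in replicate 3. Across the optimal members found in both lists, Spearman's rho of the signals was 0.645 between replicates 1 and 2, 0.644 between 1 and 3 and 0.724 between 2 and 3. These are descriptions across 518 to 524 regions that share libraries, and members that matched the same replicate region took the same signal from it. The replicate lists went into the choice of the optimal list, so this support is not independent of it.

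GC content around the summit was lower in strong than in other members in every replicate. In the 201 bp window the mean GC content was 35.4% over optimal members, 40.1% over the other members, 41.4% over all candidate regions and 36.6% over optimal regions within 500 bp of a TSS. In replicates 1, 2 and 3 the strong regions had 35.4, 35.5 and 36.5% and the others 38.8, 41.6 and 42.0%. The groups did not overlap, and the difference was -4.95 percentage points ± 1.42 (SD, n = 3), below 0 in 3 of 3 replicates (exact sign-flip permutation test, p = 0.25).

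The low GC content was a narrow dip. In bins of 50 bp the strong regions averaged 34.7% ± 1.05 at -25 bp and 34.3% ± 0.966 at 25 bp from the summit (SD, n = 3), but 44.3% ± 0.606 at -275 bp and 44.6% ± 0.545 at 325 bp. The other regions had 40.6% ± 2.08 at -25 bp and 41.7% ± 0.461 at 325 bp (SD, n = 3). Replicate 1 stood apart among the other regions, with 38.2% at -25 bp against 41.6 and 41.9% in replicates 2 and 3. Over 250 bp on each side the difference was -1.56 points, and over 50 bp it was -6.23. The mapping of reads and the library amplification can vary with GC content, and their part in the signal was not tested.

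**Figure D5:**
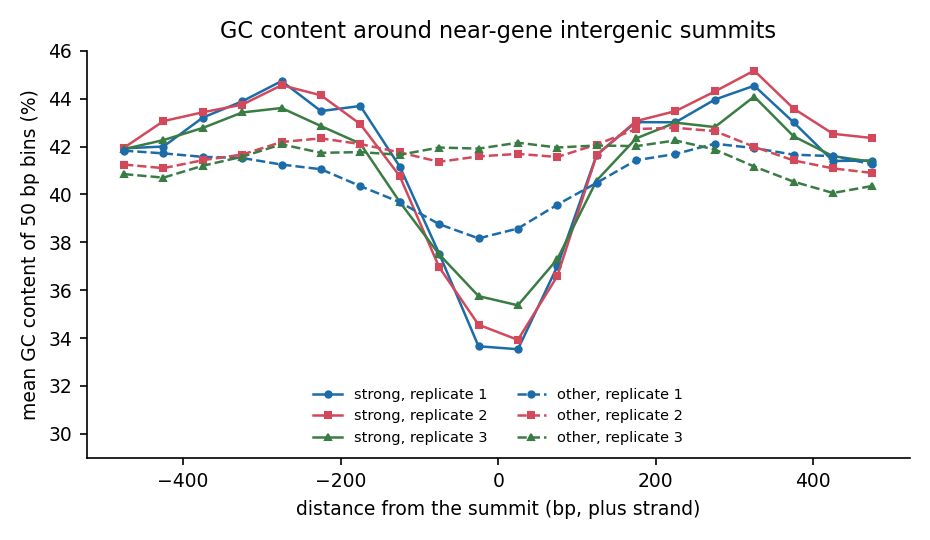
Mean GC content in 50 bp bins around the summits of intergenic regions near genes, against distance from the summit in bp on the plus strand, for strong regions (solid) and other regions (dashed) of each replicate. The strong regions fall to 33.5 to 35.8% beside the summit and reach 43.6 to 45.2% at -275 and 325 bp, while the other regions stay between 38.2 and 42.8%.

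The heat shock element was found in few members, strong or not. With at most 1 mismatch it was within 100 bp of the summit in 36 of 528 optimal members (6.82%, 95% interval 4.97 to 9.29%) and in 155 of 2926 others (5.30%, 4.54 to 6.17%). All candidate regions had 5.18%, and optimal regions within 500 bp of a TSS 6.26%. Replicates 1, 2 and 3 had 5.56, 6.93 and 5.88% in strong regions and 5.01, 4.24 and 5.07% in others, a difference of 1.35 points ± 1.17 (SD, n = 3; exact sign-flip permutation test, p = 0.25). Without replicate 2 the difference was 0.679 points. Most fixed bases of the element are A or T, the strong regions had the lower GC content, and the part of GC content in this difference was not tested.

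No optimal member held the element without a mismatch; a count of 0 of 528 allows a share of up to 0.568% by the rule of 3 counts, and the upper Wilson bound is 0.722%. The others held it in 10 of 2926 (0.342%), against 0.253% of all candidate regions and 14 of 3021 (0.463%) optimal promoter regions. The 10 were at rhea, stck, Fum3, CG44362, bib, lncRNA:CR44720, CG44438, tRNA:Arg-CCT-1-2, Gclm and Cyp18a1, with signals from 67.5 down to 26.6. Of these, bib encodes a membrane channel protein that acts in neurogenesis, Gclm a subunit of the enzyme that starts glutathione synthesis, and Cyp18a1 an enzyme that inactivates ecdysone. The stck region was in the strongest 5756 of replicates 2 and 3, at ranks 4914 and 5596, and overlapped no region of replicate 1; the rhea region was at rank 5609 in replicate 3, and at 8979 and 22749 in replicates 1 and 2. Within the replicates, a mismatch-free element was in 0.187% ± 0.190 of strong and 0.181% ± 0.117 of other regions (SD, n = 3), a difference of 0.00638 points (exact sign-flip permutation test, p = 1.0).

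Other short words were counted in the same windows on both strands, as letters that do not show binding. The TATA box word TATAAAA was in 17.8% of optimal and 12.6% of other members, and in 11.2% of all candidate regions. Its share was 17.1, 18.4 and 17.3% in the strong regions of the replicates and 13.2, 9.76 and 10.2% in the others, a difference of 6.54 points ± 2.45 (SD, n = 3; exact sign-flip permutation test, p = 0.25). The groups did not overlap. The word holds no G or C, the strong regions had the lower GC content, and the part of GC content in this difference was not tested. The homeodomain core TAATTA, which also holds no G or C, was in 17.4% of optimal and 14.6% of other members. Among optimal regions within 500 bp of a TSS, 15.9% held TAATTA and 15.7% held TATAAAA. Within the replicates the difference in TAATTA between strong and other regions was 4.45, 2.26 and 0.949 points, above 0 in 3 of 3. Its mean was 2.55 ± 1.77 (SD, n = 3, exact sign-flip permutation test, p = 0.25), and the part of GC content in it was not tested.

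DREF, a factor of growth and replication gene promoters, has the word TATCGATA, which set these regions apart from promoters by count. It was in 6 of 528 optimal members (1.14%, 95% interval 0.522 to 2.46%) and in 272 of 3021 optimal promoter regions (9.00%, 8.03 to 10.1%), against 2.41% of all candidate regions. No replicate test was made of that difference. The GAGA factor word GAGAGAG was in 1.89% of optimal and 2.26% of other members, the AP-1 word TGACTCA in 1.52 and 1.74% and the Zelda word CAGGTAG in 1.33 and 0.615%. The Grainyhead word AACCGGTT was in 0 of 528 optimal members (upper Wilson bound 0.722%) and in 0.308% of the others. Within the replicates, strong minus other regions was -0.521, -1.19 and -0.104 points for GAGA factor, below 0 in 3 of 3 (exact sign-flip permutation test, p = 0.25). For Grainyhead it was -0.262, -0.0979 and -0.428 points (p = 0.25, the same exact test). The Grainyhead word was in 0% of the strong regions of every replicate, so its difference could not be above 0 and its sign decides nothing. For Zelda, DREF and AP-1 the difference had 1 sign in 2 of 3 replicates.

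Of 18 heat shock inducible genes, 3 had a member each, and 2 of these 3 members were optimal, beside 15.3% of all members. The windows of the optimal members are shown because Hsf acts on these genes, and capitals mark TATAAAA.
stv, chr3L:13476825-13477025: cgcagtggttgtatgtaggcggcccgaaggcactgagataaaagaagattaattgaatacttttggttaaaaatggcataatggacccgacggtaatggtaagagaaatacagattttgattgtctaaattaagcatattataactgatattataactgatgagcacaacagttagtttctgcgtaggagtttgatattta
lncRNA:Hsromega, chr3R:21295162-21295362: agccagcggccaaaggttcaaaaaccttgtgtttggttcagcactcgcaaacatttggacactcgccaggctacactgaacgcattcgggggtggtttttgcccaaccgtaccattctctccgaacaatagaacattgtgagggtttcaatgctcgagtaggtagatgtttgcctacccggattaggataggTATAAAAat
Neither window held the element with at most 1 mismatch. The region at stv, which encodes a BAG-domain co-chaperone of Hsp70, was chr3L:13476837-13476992, 616 bp upstream, with a signal of 253 and ranks of 1411, 1430 and 1891. Its summit lay 201 bp from an optimal promoter summit. The region at lncRNA:Hsromega, the heat-induced RNA that assembles nuclear omega speckles, was chr3R:21295054-21295469, 865 bp upstream, with a signal of 103 near the end of the optimal list. Its ranks of 7232, 7468 and 6297 were all outside the strongest 5756 of the replicates, which was so for 1 other optimal member. The member at Hsp70Aa, a gene of the main inducible chaperone, lay between Hsp70Aa and Hsp70Ab. It had a signal of 26.5 at rank 27128 and no region in any replicate, and it overlapped an insertion of the transposable element S. Hsp70 genes are near-identical copies, so values there are uncertain, although 97.8% of the region's 50-base words occurred once on the 6 arms.

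Of the 25 members at segmentation genes, 7 were optimal, beside 15.3% of all members. They were at slp2, slp1, D, hry and bcd, with 2 each at slp2 and D, and the strongest was chr2L:3832366-3832660, 4317 bp upstream of slp2, a forkhead gene of the pair-rule system, with a signal of 653 and ranks of 268, 175 and 294. The region at slp1, its neighbour and paralog, had 214 and ranks of 1197, 2945 and 3029. At D, a Sox gene, 1 region had a signal of 198 and ranks of 937, 7240 and 2911, and the other a signal of 197 and ranks of 1976, 2400 and 2267. The ranks lay far apart for the first and close together for the second. The 4 members at Hox genes included 0 optimal ones.

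Signalling genes also had 25 members, 7 of them optimal, beside 15.3% of all members. Wnt4, a Wnt ligand gene, had one with a signal of 277 and ranks of 2388, 1079 and 1049. The ETS repressor gene aop, which Ras signalling inactivates, had 2, with signals of 259 and 238. The others were at fz (a Wnt receptor), upd2 (a JAK/STAT ligand), kay and Dad, with signals from 119 to 182.

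The stress kinase and oxidative stress list had 5 optimal members of 12 (41.7%, beside 15.3% of all members), of which 2 overlapped each other. At foxo, chr3R:14052244-14052440 and chr3R:14053441-14053731 lay 4585 and 3331 bp upstream with signals of 420 and 374, and the ranks in the replicates ran from 495 to 842 for both. The others were at scyl and chrb, both inhibitors of the TOR pathway. The signals were 197 and 134 at scyl and 165 at chrb. The regions at scyl overlapped each other and matched the same replicate regions, so they count as 2 in the pooled list and as 1 in each replicate.

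The next 5 lists are to be read beside the 15.3% of all members that were optimal. Neural genes had 4 optimal of 15 members, at nerfin-1, a zinc finger gene of neuronal fate, eya and esg, with signals from 103 to 128. The region at eya overlapped none in replicate 1, and the one at esg had ranks of 9901, 4219 and 6753. Of the 2 regions at nerfin-1, 1 was at rank 6050 in replicate 1. Muscle and mesoderm genes had 3 of 16, at bin, a FoxF gene of visceral mesoderm, and how, an RNA-binding protein of muscle and tendon; the bin regions, with 236 and 111, overlapped and matched the same replicate regions. Dorsoventral genes had 1 of 6, at Doc2, a T-box gene, with 246. The ecdysone list had 1 of 6, at Hr38, a nuclear receptor gene, with ranks of 2917, 1810 and 6814 that put it outside the strongest regions in replicate 3. The trachea and epidermis list had 1 of 11, at Ddc, the dopa decarboxylase gene, with 108 and a rank of 6684 in replicate 1.

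Chemoreceptor genes had 7 optimal of 46 members (15.2%, beside 15.3% of all members), led by Gr93a with 315 and Gr89a with 290. Cuticle genes had 3 of 24, led by Cpr76Ba with 475. Transfer RNA genes had 13 of 69 (18.8%, 95% interval 11.4 to 29.6%), led by tRNA:Lys-CTT-1-11 with 256 and tRNA:Phe-GAA-1-7 with 253. Transfer RNA genes occur in near-identical copies, but these summits lay outside them, 3483 and 2357 bp from the nearest start.

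The remaining lists held few members, to be read beside the 15.3% of all members that were optimal. Cell cycle genes had 1 of 3, at CycB, small nucleolar and small nuclear RNA genes 1 of 10, microRNA genes 0 of 8 and glycolysis genes 0 of 2, and germline genes had no member. The lists were chosen with results of these data known, and their shares are descriptions.

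Transposable element insertions overlapped 109 members, of which 8 were optimal (7.34%, 95% interval 3.77 to 13.8%), against 520 of 3345 (15.5%, 14.4 to 16.8%) without one. INE-1, an old and abundant element, accounted for 60 of the 109 and for 6 of the 8, among them the regions at ed, a cell adhesion gene, with 256 and at Ddc. Reads from repeats can be lost or misplaced, and how such reads were treated is not given in the sources used here. In 3430 of the 3454 members at least 90% of the 50-base words occurred once on the 6 arms. Overlap and repeat content were not tested against signal in the replicates.

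At the lower bound of the class, the nearest regions outside, at 500 bp, were at glec (signal 86.3) and IP3K2 (49.6), and the nearest inside, at 501 bp, was at CG6225 (242). At the upper bound, the last inside, at 4994 bp, was at lncRNA:CR45237 (25.4) and the first outside, at 5001 bp, at CG13171 (26.9).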

How the data were processed

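The authors deposited narrowPeak lists in dm6 for each replicate, for the pooled replicates and for the optimal regions; dm3 lists were not used. The deposited signal scores each region relative to a control, by the authors' own processing per the readme text; which aligner and caller were run is not given in the sources used here. Replicate lists held 30000, 28223 (on the 6 arms) and 30000 regions.

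Summits were placed with Ensembl release 115 models (annotation 6.54, 18164 genes on the arms) without 5809 transposable element insertions, which it lists as genes. List positions lay within the arms of genome release 6, whose RefSeq copy gave the sequences. Pooled members were matched to the strongest replicate region that overlapped them by at least 1 bp, without regard to its summit. Differences between classes were tested over the 3 replicates by exact sign flips, two-sided (Python 3.11.15, numpy 2.4.6, pandas 2.3.3, scipy 1.17.1). The placing, the element search and the test were checked on simulated data. Intervals are Wilson's at 95%.

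Named members were the 12 strongest, up to 2 optimal ones for each of 19 gene lists (for some lists all are given, chosen after their values were seen), those with an element, those at heat shock genes and those at the bounds; 9 list symbols did not match. The result of 1 list is not reported here. Members and lists were chosen with earlier results of these data known.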

Additional observations from a re-analysis of the deposited data

How the results depend on the processing

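Of 49 alternative values, 0 reversed direction, but for many of them a reversal was not possible. The share in the optimal list has no direction, and it moved in 7 of its alternatives. Each main difference had 1 sign in 3 of 3 replicates, so a mean without 1 replicate could not reverse. Several differences became much smaller, as given here and beside the results. The share of members in the optimal list, 15.3%, was 16.2% with protein-coding genes only, 14.4% with members over 1000 bp from a TSS only, 18.0% when 1 bp of overlap with an optimal region sufficed, and 6.72% for optimal regions above their median signal. Counting regions strong in both remaining replicates, it was 10.8 to 11.2% with 1 replicate left out in turn, by a stricter construction. Alternatives chosen after seeing the data gave 15.2% with transposable element insertions counted as genes, 15.1% for members that overlap no optimal promoter region and 15.5% for members without such an insertion. Between near-gene and intronic regions the difference was -0.602 points with protein-coding genes only and was no longer of 1 sign in all 3 replicates. The upstream minus downstream difference was 1.33 points with regions over 1000 bp from a TSS only. It too was no longer of 1 sign in all 3 replicates. The difference in the element was 0.00638 points with no mismatch allowed, and that in GC content was -1.56 points within 250 bp of the summit; the cause was not tested. With the 2878 highest signals of each list called strong, the difference was 2.16 points from remote regions, 2.76 between the nearest and farthest distance classes, 1.06 between sides and 2.59 for the element. The differences between classes of regions were paired within each replicate; with 1 group, there were no samples to pair between groups. Depth is unknown, and with 3 replicates the exact test cannot give a p under 0.25.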
